A study of Homo sapiens with 18 samples.

Results

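The genes of iron uptake, storage and export described here are TFRC, FTH1, FTL, SLC40A1, SLC11A2, IREB2, ACO1, SLC39A14 and CYBRD1. They were chosen by name, as every non-control spot that carries 1 of these gene names, and all 9 of 9 were found on the array. They were read by 35 of 58717 non-control spots, or 17 of 50599 probes. TFRC, SLC40A1, IREB2 and ACO1 have 1 probe each, and the other 5 genes have several.

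Expression was measured on 18 one-colour Agilent arrays of 2 human colorectal cancer cell lines, with the question of what oxaliplatin (OXA) and Curcumin change in cells that are sensitive or resistant to OXA. HT29 is the OXA-sensitive parental line and HTOXAR3 is a resistant subline of it, so that a difference between them belongs to 1 pair of lines. Each line was left untreated, treated for 24 h with OXA, or treated for 24 h with OXA plus Curcumin, with 3 arrays in each of the 6 groups. The replicates are labelled as biological, and the labels do not say whether the cultures were grown separately. OXA was used at 10 µM in HT29 and at 30 µM in HTOXAR3, and Curcumin at 10 µM in both lines. A comparison of the treated lines therefore also compares doses of OXA. No arm with Curcumin alone was analysed, and the effect of Curcumin is always its effect in the presence of OXA. Each array had 52.4% to 63.6% of its non-control spots well above background. With 3 arrays per group, the precision of every value is limited.

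Cells take up transferrin-bound iron through the transferrin receptor TFRC, reduce it, and pass ferrous iron through transporters such as SLC11A2 (DMT1) and SLC39A14 (ZIP14). Iron that is not used is stored in ferritin, a shell of heavy (FTH1) and light (FTL) chains, or leaves through ferroportin (SLC40A1). ACO1 and IREB2 encode the iron regulatory proteins, which bind a hairpin called the iron-responsive element when iron is scarce, holding back translation of ferritin and ferroportin and protecting the TFRC mRNA. The arrays measure RNA and read neither protein nor iron.

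The label of the cells was checked against marker genes. Of 10 markers of colon epithelial cells, 8 were well above background on all 18 arrays. The other 2 were CDH17, above background on 5 arrays, and CDX2, on 10. Of 5 fibroblast markers, 0 were above background on all 18 arrays, and COL1A2 and COL3A1 were so on none. Of 4 endothelial markers, VWF and CDH5 were above background on all arrays. Among leukocyte markers, CD14 was the brightest, between log2 10.19 and 11.52.

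The largest responses among the 9 genes were those of FTL and SLC40A1. FTL RNA was 2.28-fold higher in HT29 and 3.20-fold higher in HTOXAR3 when Curcumin was added to OXA. SLC40A1 RNA was 2.56-fold lower in HT29 and 2.28-fold lower in HTOXAR3 after OXA, and among untreated cells it was 3.02-fold lower in HTOXAR3. IREB2 fell with OXA in both lines, by 1.36-fold and 1.35-fold. In bulk RNA, fewer cells of a type and less RNA per cell cannot be told apart.

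A gene was called where its p, adjusted over all gene names by the Benjamini-Yekutieli method in limma, was below 0.05 and its fold change was above 1.2. Between the untreated lines, 3 of the 9 genes were called, against 11.5% of all gene names. OXA changed 3 of 9 in HT29, against 15.9% of all names, and 2 of 9 in HTOXAR3, against 10.2%. Curcumin added to OXA changed 2 of 9 in HT29, against 5.53%, and 1 of 9 in HTOXAR3, against 8.83%. OXA plus Curcumin against no treatment changed 4 of 9 in HT29, against 18.6%, and 3 of 9 in HTOXAR3, against 17.5%. The shares of all names include dim names, and no excess among the 9 genes is read from counts of 1 to 4. In limma, 0 of 9 were called for a difference between the lines in the response to OXA (1.01% of all names, with 4944 names at an unadjusted p below 0.05). The same count was 0 for the response to added Curcumin (0.135%, with 3526 names) and 0 for the response to OXA plus Curcumin (0.856%, with 5202 names). The treatment comparisons within a line share arrays, as do those of the untreated groups, and are given side by side. Of the 9 genes, FTH1, ACO1 and CYBRD1 were called in none of the 10 comparisons through the probe that stands for them.

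**Figure D1:**
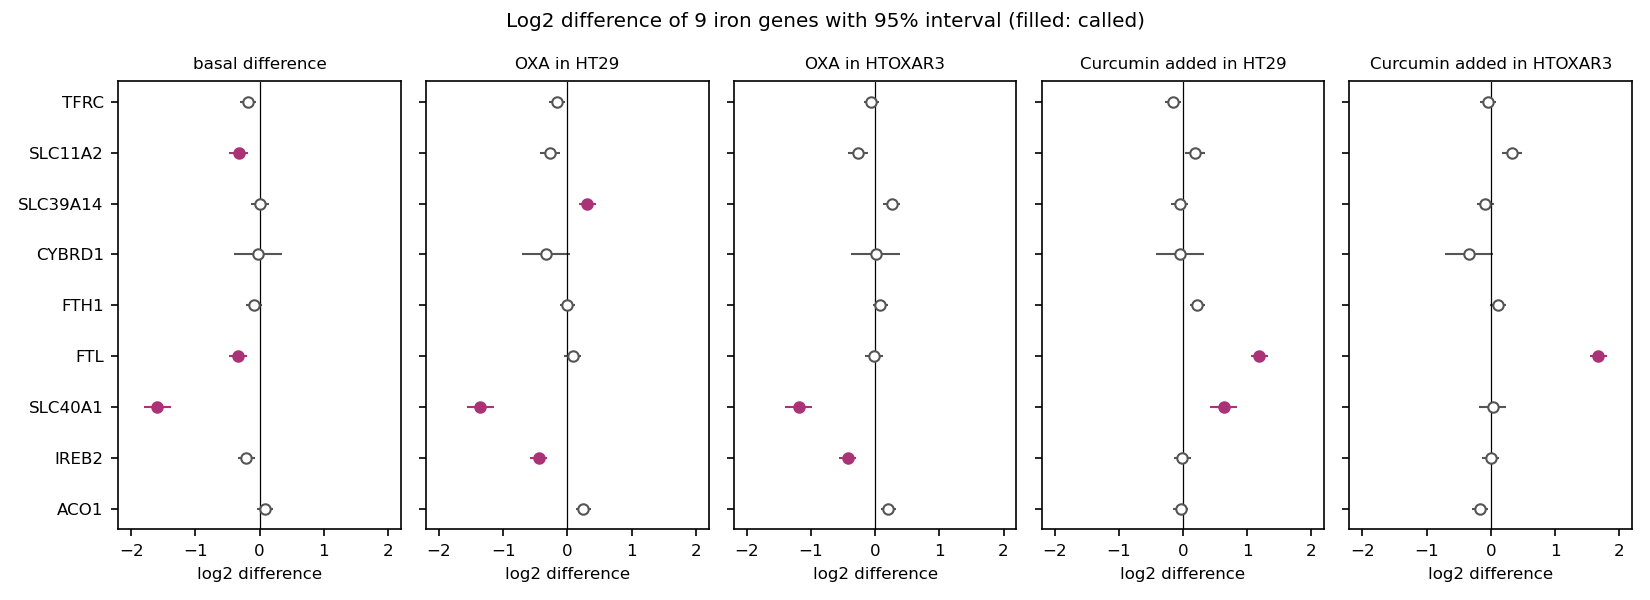
Log2 differences of the 9 genes in the comparisons of the untreated lines, of OXA with no treatment and of OXA plus Curcumin with OXA, with 95% intervals from limma. Filled points were called. FTL with added Curcumin (1.19 and 1.68) and SLC40A1 between the lines (-1.59) and with OXA (-1.36 and -1.19) lie farthest from 0.

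Groups that do not overlap are common with 3 arrays each. Over all names, 32.6% had groups apart between the untreated lines, 34.5% and 34.3% for OXA in HT29 and HTOXAR3, 26.2% and 31.9% for added Curcumin, and 38.7% and 38.1% for OXA plus Curcumin. All differences below are log2 differences of group means of quantile-normalized intensities. Scaling each array to its 75th percentile instead moved the median of all names by more than 0.1 in 4 of 7 comparisons of pairs of groups, by up to -0.20 for OXA in HTOXAR3, when the scanner software's processed signal was used. With normexp-corrected signal scaled the same way, it did so in 3 of 7. The 18 called differences of the 9 genes kept their direction under both scalings, also relative to the moved median, and 16 of 18 stayed called under each. The arrays lay on 3 slides. Fitting the arrays of the compared groups alone left fewer genes called, and such losses are given with each gene. That fit called fewer of all names too, between 16 and 3013 in the 7 comparisons of pairs of groups, in place of 2002 to 6724. Slide 1 held an untreated and an OXA-treated HT29 array, and slides 2 and 3 each held arrays of all 6 groups. Within slides the called differences had the same direction in 3 of 3 cases on slide 1, 18 of 18 on slide 2 and 18 of 18 on slide 3. For all 18 called differences the groups were apart, so this direction was fixed in advance and is no check on slides. Only the sizes within slides can vary.

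TFRC, the receptor for transferrin, was read at 14.64, 14.65 and 14.58 in untreated HT29, 14.43, 14.53 and 14.44 after OXA, and 14.27, 14.37 and 14.29 after OXA plus Curcumin. In HTOXAR3 its log2 intensity ran from 14.30 to 14.47 over the 9 arrays. The HT29 arrays fell from untreated to OXA plus Curcumin without overlap, and the HTOXAR3 groups overlapped. TFRC fell with OXA plus Curcumin in HT29, with a difference of -0.31 (SE 0.06, adjusted p = 0.00661) and -0.32 with slide as a block. With the processed signal scaled to the 75th percentile it was -0.48 (adjusted p = 0.000151), or -0.33 relative to the median of all names, and with the compared groups alone in the fit the call was lost (adjusted p = 0.371). The differences were -0.33 within slide 2 and -0.29 within slide 3. The test of the difference in this response between the lines gave 0.21 (SE 0.08, adjusted p = 1), and 0.32 under both scalings to the 75th percentile. OXA alone gave -0.16 in HT29 (adjusted p = 0.606), which was called at -0.30 (adjusted p = 0.0102) with the processed signal and at -0.29 (adjusted p = 0.0209) with normexp, both scaled to the 75th percentile, where the median of all names itself stood at -0.10 and -0.09. Between the untreated lines the difference was -0.18 (adjusted p = 0.378).

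SLC11A2 imports ferrous iron across the apical membrane of the gut epithelium and out of endosomes. Its brighter probe, A_23_P139820, read 9.84, 10.08 and 10.06 in untreated HT29 and 9.63, 9.72 and 9.65 in untreated HTOXAR3. All 3 HTOXAR3 arrays lay below all 3 HT29 arrays, and SLC11A2 was lower in untreated HTOXAR3 by a log2 difference of -0.33 (SE 0.07, adjusted p = 0.0449). The call was lost without any 1 of 5 of the 6 arrays, namely HT29 replicates 2 (-0.28) and 3 (-0.29) and HTOXAR3 replicates 1 (-0.31), 2 (-0.35) and 3 (-0.32), with adjusted p between 0.0949 and 0.266. It was also lost with slide as a block (-0.35, adjusted p = 0.0637), under both scalings to the 75th percentile (-0.31, adjusted p = 0.105, and -0.32, adjusted p = 0.0605), with replicate number as a block (adjusted p = 0.0814) and with the compared groups alone in the fit (adjusted p = 0.92). Relative to the median of all names, both scaled values were -0.38. The other probe, A_24_P381494, was called for the same comparison at -0.40 (adjusted p over all probes 0.00466). Within slides, the difference was -0.41 within slide 2 and -0.40 within slide 3.

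The 2 probes of SLC11A2 differed in the size of their response to OXA. They lie 1825 bases apart on GRCh37, the dimmer one, A_24_P381494, downstream. The brighter probe differed by -0.27 in HT29 (adjusted p = 0.112) and by -0.26 in HTOXAR3 (adjusted p = 0.191), and neither was called. A_24_P381494 read 9.48, 9.43 and 9.61 in untreated HT29 and 8.89, 8.90 and 8.80 after OXA, with no overlap. It fell with OXA, by a difference of -0.65 in HT29 (SE 0.06, adjusted p over all 50599 probes 4.25e-05) and of -0.41 in HTOXAR3 (SE 0.06, adjusted p = 0.00492). The test of a difference between the lines for this probe gave 0.24 (adjusted p = 1). With the mean of both probes, SLC11A2 was called for OXA at -0.46 in HT29 and at -0.34 in HTOXAR3. The brighter probe was itself called in HT29 without HT29 untreated replicate 1 (-0.35, adjusted p = 0.018).

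The response of SLC11A2 to Curcumin added to OXA passed the test on the dimmer probe in HTOXAR3, where the test of a difference between the lines gave 0.13 (adjusted p = 1). In HTOXAR3 the brighter probe read 9.33, 9.47 and 9.41 after OXA and 9.80, 9.65 and 9.75 after OXA plus Curcumin. These groups did not overlap, and the difference of 0.33 had an adjusted p of 0.0504, just outside the threshold. It was called on the dimmer probe at 0.34 (SE 0.06, adjusted p = 0.0235). Under 5 alternatives, among them the mean of both probes, SLC11A2 was called at adjusted p between 0.00455 and 0.0432. It was not called when an array was left out (adjusted p between 0.0646 and 0.272). Nor was it called with slide or replicate number as a block, or with normexp scaled to the 75th percentile. In HT29 the difference was 0.19 (adjusted p = 1). OXA plus Curcumin against no treatment in HT29 gave -0.08 (adjusted p = 1) on the brighter probe and -0.44 (adjusted p = 0.00132) on the dimmer one, with -0.26 (adjusted p = 0.0535) for their mean.

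SLC39A14 encodes a transporter of iron that is not bound to transferrin, and of zinc and manganese. Its brighter probe read 13.21, 13.23 and 13.27 in untreated HT29 and 13.48, 13.59 and 13.57 after OXA. The OXA arrays lay above the untreated ones without overlap. SLC39A14 rose by 0.31 with OXA in HT29 (SE 0.06, adjusted p = 0.0166). The value with slide as a block was also 0.31, and within slides 1, 2 and 3 it was 0.28, 0.36 and 0.30. The call was lost without HT29 untreated replicate 1 (0.30) or 2 (0.31) or HT29 OXA replicate 2 (0.29) or 3 (0.30), with adjusted p between 0.0762 and 0.0979. It was lost too at 0.22 (adjusted p = 0.165) and 0.24 (adjusted p = 0.109) with processed and normexp signal scaled to the 75th percentile, at 0.19 (adjusted p = 1) with the mean of both probes, and with the compared groups alone in the fit (adjusted p = 0.445). Relative to the median of all names, the values under the 2 scalings were 0.32 and 0.33. In HTOXAR3 the difference was 0.26 (adjusted p = 0.0945), or 0.14 with the mean of both probes, and the test between the lines gave -0.06 (adjusted p = 1), a value whose sign changed under both scalings to the 75th percentile. The other probe of SLC39A14 ran from 5.99 to 6.50 over all arrays and gave 0.07 with OXA in HT29 (adjusted p = 1).

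CYBRD1 is a ferric reductase of the duodenal surface. Its 2 probes, 2865 bases apart, gave different pictures. The brighter one, A_23_P209564, read 6.50, 6.50 and 6.61 in untreated HT29 and 6.51, 6.29 and 6.74 in untreated HTOXAR3. These groups overlapped, with a difference of -0.02 (SE 0.18, adjusted p = 1) that changed sign under both scalings to the 75th percentile.

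The dimmer probe of CYBRD1 read higher in HTOXAR3. It is shown because it carries the difference, and it lies at chr2:172411114-172411173 on GRCh37, plus strand.
CYBRD1 A_24_P345451: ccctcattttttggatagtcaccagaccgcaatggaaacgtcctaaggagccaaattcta
This probe read 4.20, 4.75 and 4.63 in untreated HT29, where it was well above background on 1 of 3 arrays, and 6.05, 6.04 and 6.21 in untreated HTOXAR3. All HTOXAR3 arrays lay above all HT29 arrays. With 2 of the 3 untreated HT29 arrays not well above background, the sizes of the differences from that group are uncertain. The measured difference was 1.57 (SE 0.13, adjusted p = 1.02e-05). With OXA in HT29 the measured difference was 0.81 (SE 0.13, adjusted p = 0.0037), against -0.34 (SE 0.18, adjusted p = 1) on the brighter probe. With OXA plus Curcumin in HT29 it was 0.81 (adjusted p = 0.00325), against -0.38 (adjusted p = 1) on the brighter probe. In HTOXAR3 the dimmer probe gave 0.30 with OXA (adjusted p = 1), against 0.01 on the brighter one. The test between the lines gave -0.51 (adjusted p = 1) on the dimmer probe and 0.34 (SE 0.25) on the brighter one, and neither was called. The mean of both probes was called between the untreated lines at 0.78 (adjusted p = 0.00221).

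**Figure D2:**
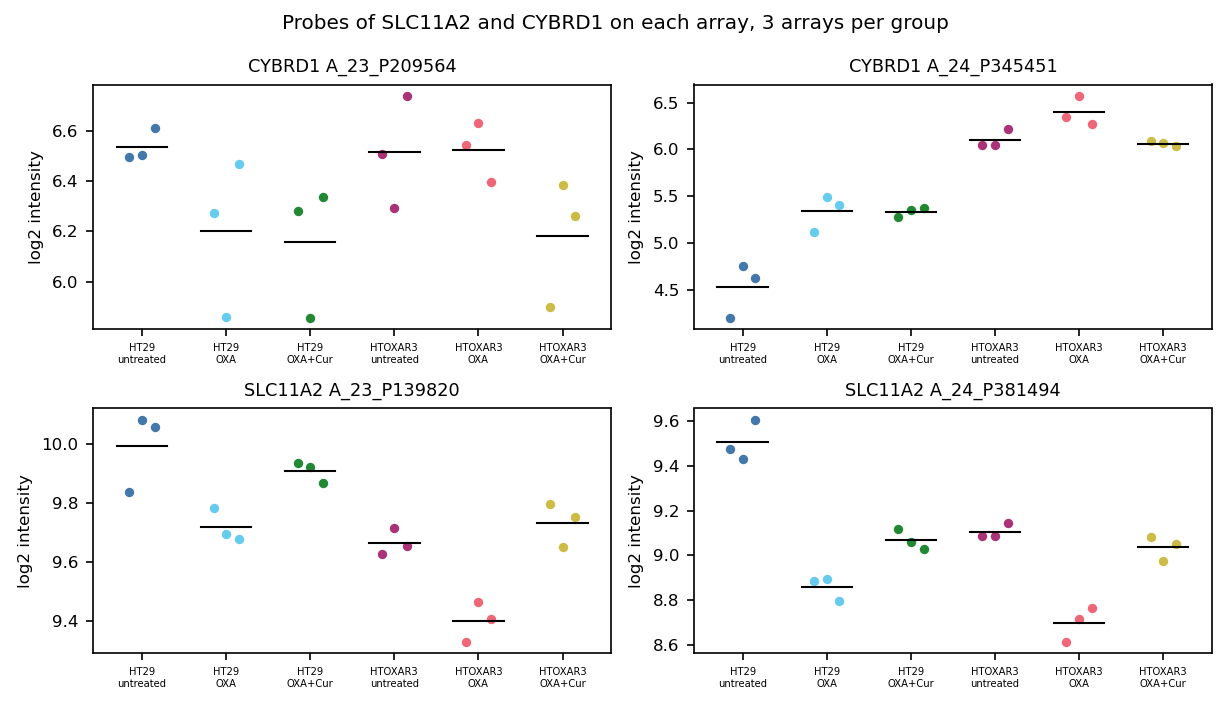
Log2 intensity of each probe of CYBRD1 and SLC11A2 on every array, 3 per group, with the group mean as a line. The vertical axes differ between panels. The dimmer CYBRD1 probe reads 4.20 to 4.75 in untreated HT29 and 6.04 to 6.21 in untreated HTOXAR3, whereas the brighter one overlaps between the lines.

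FTL encodes the light chain of ferritin, which helps mineralize iron inside the shell. The probe that stands for FTL, A_32_P155247, read 15.88, 15.94 and 15.88 in untreated HT29, 15.94, 15.96 and 16.04 after OXA, and 17.30, 17.13 and 17.08 after OXA plus Curcumin. In HTOXAR3 it read 15.54, 15.53 and 15.61 untreated, 15.51, 15.57 and 15.56 after OXA, and 17.19, 17.17 and 17.30 after OXA plus Curcumin. In both lines every array with Curcumin lay more than 1 log2 unit above every array without it, and the untreated and OXA groups overlapped.

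FTL rose with Curcumin added to OXA by 1.19 in HT29 (SE 0.06, adjusted p = 9.67e-07) and by 1.68 in HTOXAR3 (SE 0.06, adjusted p = 2.06e-08). With the compared groups alone in the fit, the call in HT29 was lost (adjusted p = 0.109). With slide as a block these were 1.18 (adjusted p = 2.87e-05) and 1.68 (adjusted p = 4.60e-07). Within slides 2 and 3 they were 1.25 and 1.04 in HT29, and 1.68 and 1.67 in HTOXAR3. Against untreated cells, OXA plus Curcumin raised FTL by 1.27 in HT29 (adjusted p = 4.89e-08) and by 1.66 in HTOXAR3 (adjusted p = 6.87e-09). The corresponding values with slide as a block were 1.26 and 1.66, and those within slides 2 and 3 were 1.27 and 1.199 in HT29 and 1.66 and 1.63 in HTOXAR3.

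The rise of FTL with added Curcumin was larger in HTOXAR3 by 0.49 (SE 0.09), a difference that did not pass the test (adjusted p = 0.251). It passed with a normexp offset of 50 (adjusted p = 0.044) and with Benjamini-Hochberg adjustment (adjusted p = 0.0227). For OXA plus Curcumin against no treatment the difference between the lines was 0.39 (SE 0.09, adjusted p = 0.332), which passed with Benjamini-Hochberg adjustment alone (adjusted p = 0.0299).

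Between the untreated lines, FTL was lower in HTOXAR3 by a log2 difference of -0.34 (SE 0.06, adjusted p = 0.0147), with all 3 HTOXAR3 arrays below all 3 HT29 arrays. With slide as a block it was -0.35 (adjusted p = 0.0324), and within slides 2 and 3 it was -0.41 and -0.27. The call was lost without HT29 untreated replicate 1 (-0.35) or 2 (-0.32) or HTOXAR3 untreated replicate 1 (-0.33) or 2 (-0.32), with adjusted p between 0.0506 and 0.0898, and with the compared groups alone in the fit (adjusted p = 0.286). The other 2 probes of FTL gave -0.38 and -0.38, both called over all 50599 probes.

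The 3 probes of FTL lie in different places of the gene and moved together. The responses to added Curcumin were 1.16 and 1.22 in HT29 on A_19_P00812340 and A_23_P50504, and 1.44 and 1.71 in HTOXAR3, all called over all probes. On A_19_P00812340 the difference between the lines was 0.28 (adjusted p = 1). A_32_P155247 lies at chr19:49469029-49469088 and A_19_P00812340 at chr19:49469860-49469919 on GRCh37, plus strand. Their sequences are shown because they carry the rise of FTL.
FTL A_32_P155247: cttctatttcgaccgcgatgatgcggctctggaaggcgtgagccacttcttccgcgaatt
FTL A_19_P00812340: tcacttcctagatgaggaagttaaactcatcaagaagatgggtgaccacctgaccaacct

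FTL is also a gene with an iron-responsive element near the start of its mRNA. The loop of this element, CAGTGN on the sense strand with a C in the 6th place before it, was searched in RefSeq windows of 300 bases around transcript starts, and the antioxidant response element TGACNNNGC on both strands. Of the 9 genes, 7 have a window, and FTH1 and SLC39A14 do not. The loop was found in 1 of these 7 genes, FTL, and in 10.1% of 35116 windows (3564). Elements past either end of a window, such as those near the 3′ end of the TFRC mRNA, were not searched. A gene without a match here may therefore still carry an element. The antioxidant response element was found in 0 of the 7 genes and in 13.3% of the windows (4687), with the same limit. The shares are of windows, and a gene can have several windows. A match is a match of letters and no more. The FTL match is shown within the last 30 bases of its window, from RefSeq on GRCh38.p14 at chr19:48965329-48965358, plus strand. The window ends soon after the loop, and bases of the element past that end are not shown. The loop and the preceding C are in capitals.
FTL iron-responsive element: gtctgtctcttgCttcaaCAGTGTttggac

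FTH1 encodes the heavy chain of ferritin, which oxidizes ferrous iron before storage. The brightest of its 4 probes, A_33_P3253249, stands for the gene. It read 17.99, 18.06 and 18.04 in untreated HT29, 17.97, 18.06 and 18.05 after OXA, and 18.32, 18.21 and 18.21 after OXA plus Curcumin. In HTOXAR3 it read 17.97, 17.89 and 17.97 untreated, 18.04, 18.06 and 17.96 after OXA, and 18.13, 18.18 and 18.09 after OXA plus Curcumin. The arrays with Curcumin lay above those without it in each line, by small distances.

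On this probe FTH1 was called in no comparison. The differences with added Curcumin were 0.22 in HT29 (SE 0.06, adjusted p = 0.172) and 0.11 in HTOXAR3 (SE 0.06, adjusted p = 1). Those of OXA plus Curcumin against no treatment were 0.22 in HT29 (adjusted p = 0.0768) and 0.19 in HTOXAR3 (adjusted p = 0.205). With the mean of the 4 probes the latter were called at 0.31 (adjusted p = 0.00286) and 0.30 (adjusted p = 0.00333), and added Curcumin in HTOXAR3 gave 0.24. With the processed signal scaled to the 75th percentile they were 0.01 and 0.02 (adjusted p = 1 for both), and with normexp scaled the same way 0.02 and 0.04. The median of all names for OXA plus Curcumin itself stood at -0.15 and -0.19 with the processed signal. With normexp it stood at -0.16 and -0.17.

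Another pair of FTH1 probes, A_21_P0013796 and A_24_P58337, rose where the probe above was not called. The probes of this pair overlap, so they are not independent readings, and whether they read RNA of FTH1 alone was not tested. A_21_P0013796 read 17.72, 17.73 and 17.67 in untreated HT29, 18.004, 17.99 and 17.95 after OXA, and 18.26, 18.23 and 18.27 after OXA plus Curcumin. HTOXAR3 arrays read 17.51, 17.61 and 17.63 untreated, 17.69, 17.77 and 17.72 after OXA, and 18.14, 18.12 and 18.15 after OXA plus Curcumin. The 3 groups of each line stood in this order without overlap. For OXA plus Curcumin against no treatment the readings of A_21_P0013796 rose by 0.55 in HT29 (SE 0.05, adjusted p = 1.83e-05) and by 0.55 in HTOXAR3 (SE 0.05, adjusted p = 1.86e-05), and A_24_P58337 by 0.55 and 0.58 (SE 0.05, adjusted p = 2.87e-05 and 2.06e-05). With added Curcumin the pair rose by 0.27 and 0.29 in HT29 and by 0.41 and 0.38 in HTOXAR3, all called.

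With OXA alone in HT29, the probes of FTH1 differed in sign. A_21_P0013796 rose by 0.27 (adjusted p = 0.0109), and A_24_P58337 gave 0.26 (adjusted p = 0.0285), under the fold minimum. A_33_P3253249 gave -0.002 (SE 0.06, adjusted p = 1), which was called at -0.30 (adjusted p = 0.0327) with the processed signal scaled to the 75th percentile. Under that scaling the median of all names itself stood at -0.10. The dimmest probe, A_32_P342064, gave -0.22 (adjusted p = 0.88). That probe overlaps A_33_P3253249 by 26 bases and gave -0.10 in HT29 and -0.12 in HTOXAR3 (adjusted p = 1 for both) for OXA plus Curcumin. It has at least 50 identical bases with a probe of the array that carries no gene symbol, the single such match among the 17 probes. In HTOXAR3, OXA gave 0.14 on A_21_P0013796 (adjusted p = 0.798). The test between the lines gave -0.13 (adjusted p = 1) on that probe, against 0.08 (SE 0.08) on A_33_P3253249, and neither was called.

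**Figure D3:**
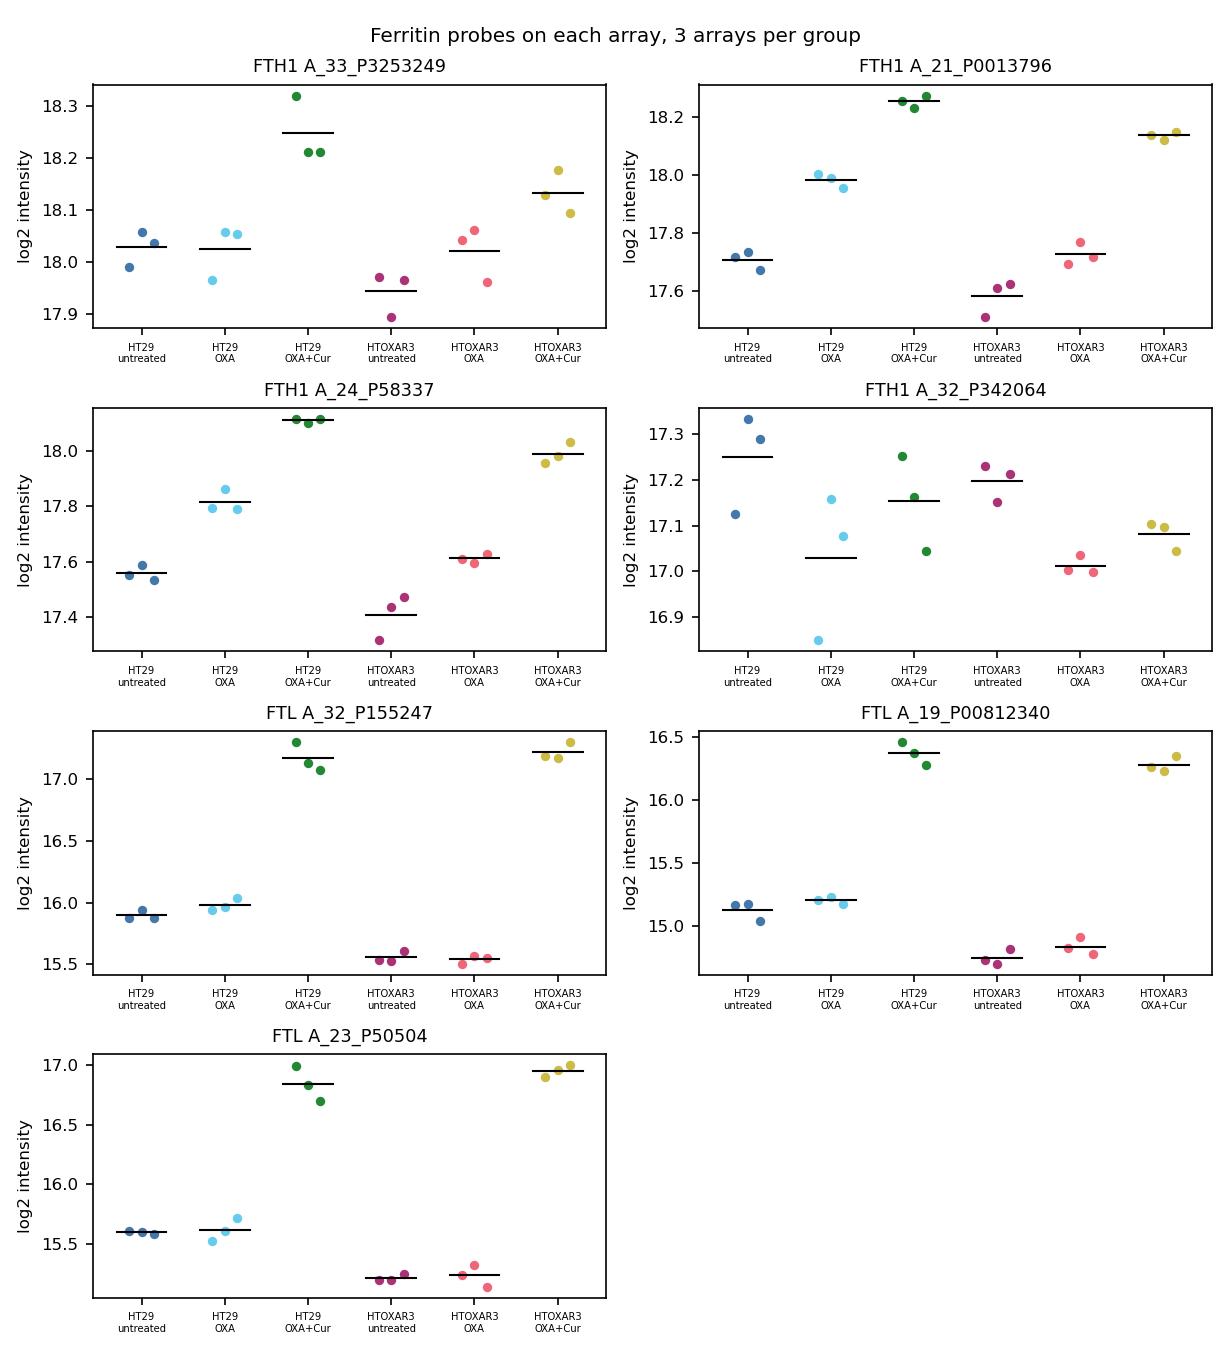
Log2 intensity of the 4 probes of FTH1 and the 3 probes of FTL on every array, 3 per group, with the group mean as a line. The vertical axes differ between panels. All 3 FTL probes stand higher in the OXA plus Curcumin groups, and the FTH1 probes A_21_P0013796 and A_24_P58337 rise in each line from untreated to OXA plus Curcumin, whereas A_32_P342064 does not.

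SLC40A1 encodes ferroportin, the exporter of iron from cells, which hepcidin removes from the membrane. It was read by 10 spots of 1 probe, at chr2:190425750-190425809 on GRCh37, minus strand. It read 11.51, 11.54 and 11.72 in untreated HT29, 10.12, 10.20 and 10.39 after OXA, and 10.77, 10.81 and 11.03 after OXA plus Curcumin. In HTOXAR3 it read 9.97, 9.90 and 10.13 untreated, 8.70, 8.80 and 8.93 after OXA, and 8.84, 8.86 and 8.82 after OXA plus Curcumin. In HT29 the 3 groups were apart, with untreated highest and OXA lowest. In HTOXAR3 the treated groups overlapped and lay below the untreated arrays.

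Without treatment, SLC40A1 was lower in HTOXAR3, with a log2 difference of -1.59 (SE 0.10, adjusted p = 3.28e-07). With slide as a block this was -1.62, and within slides 2 and 3 it was -1.61 and -1.60. OXA lowered SLC40A1 further in each line, by a difference of -1.36 in HT29 (SE 0.10, adjusted p = 1.68e-06) and -1.19 in HTOXAR3 (SE 0.10, adjusted p = 1.63e-05). Slide as a block gave -1.36 and -1.24. Within slides 1, 2 and 3 the differences were -1.40, -1.34 and -1.34 in HT29, and within slides 2 and 3 they were -1.24 and -1.26 in HTOXAR3.

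Curcumin added to OXA raised SLC40A1 in HT29 by 0.63 (SE 0.10, adjusted p = 0.00681), leaving it below untreated cells by a difference of -0.72 (adjusted p = 0.00053). With the compared groups alone in the fit, both calls were lost (adjusted p = 0.678 and 0.09). The value of the rise with slide as a block was 0.61 (adjusted p = 0.00117), and within slides 2 and 3 it was 0.59 and 0.64. In HTOXAR3, added Curcumin gave 0.03 (SE 0.10, adjusted p = 1), and OXA plus Curcumin gave -1.16 against untreated cells (adjusted p = 7.08e-06). With slide as a block the differences from untreated cells were -0.75 and -1.21. Within slides 2 and 3 they were -0.75 and -0.70 in HT29, and -1.10 and -1.29 in HTOXAR3.

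The response of SLC40A1 to added Curcumin was thus called in HT29 and not in HTOXAR3. The test of the difference between the lines gave -0.60 (SE 0.14, adjusted p = 0.694), with a 95% interval from -0.90 to -0.31 before adjustment, and did not pass. For OXA plus Curcumin against no treatment it gave -0.44 (SE 0.14, adjusted p = 1).

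IREB2 encodes iron regulatory protein 2, whose protein is degraded when iron is plentiful. It read 12.17, 12.22 and 12.06 in untreated HT29, 11.59, 11.77 and 11.74 after OXA, and 11.64, 11.73 and 11.71 after OXA plus Curcumin. In HTOXAR3 it read 11.94, 11.94 and 11.95 untreated, 11.52, 11.46 and 11.56 after OXA, and 11.52, 11.54 and 11.50 after OXA plus Curcumin. In each line both treated groups lay below the untreated arrays and overlapped with each other.

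IREB2 fell with OXA, by differences of -0.45 in HT29 (SE 0.06, adjusted p = 0.000749) and -0.43 in HTOXAR3 (SE 0.06, adjusted p = 0.00203). With the compared groups alone in the fit these calls were lost (adjusted p = 0.295 and 0.138). With slide as a block the differences were -0.45 and -0.42. Within slides 1, 2 and 3 they were -0.58, -0.45 and -0.32 in HT29, and within slides 2 and 3 they were -0.42 and -0.44 in HTOXAR3. With OXA plus Curcumin IREB2 gave -0.46 in HT29 (adjusted p = 0.000519, and 0.145 with the compared groups alone) and -0.43 in HTOXAR3 (adjusted p = 0.00101), both called, or -0.48 and -0.42 with slide as a block. Within slides 2 and 3 those differences were -0.54 and -0.35 in HT29 and -0.42 and -0.44 in HTOXAR3. With the processed signal scaled to the 75th percentile, the difference with OXA in HTOXAR3 was -0.17 relative to the median of all names, which itself moved, and that with OXA plus Curcumin was -0.19. IREB2 differed by -0.20 between untreated cells of the lines (adjusted p = 0.341).

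ACO1 encodes the cytosolic aconitase that becomes iron regulatory protein 1 when it loses its iron-sulfur cluster. It read 10.44, 10.49 and 10.49 in untreated HT29 and 10.63, 10.72 and 10.81 after OXA. These groups did not overlap, and the difference of 0.25 had an adjusted p of 0.0413 and lay under the 1.2-fold minimum. With the processed and normexp signal scaled to the 75th percentile, ACO1 was called at 0.28 and 0.27, and also without HT29 OXA replicate 1 (0.29, adjusted p = 0.0183). In HTOXAR3 OXA gave 0.21 (adjusted p = 0.185), and OXA plus Curcumin in HT29 gave 0.21 (adjusted p = 0.104).

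**Figure D4:**
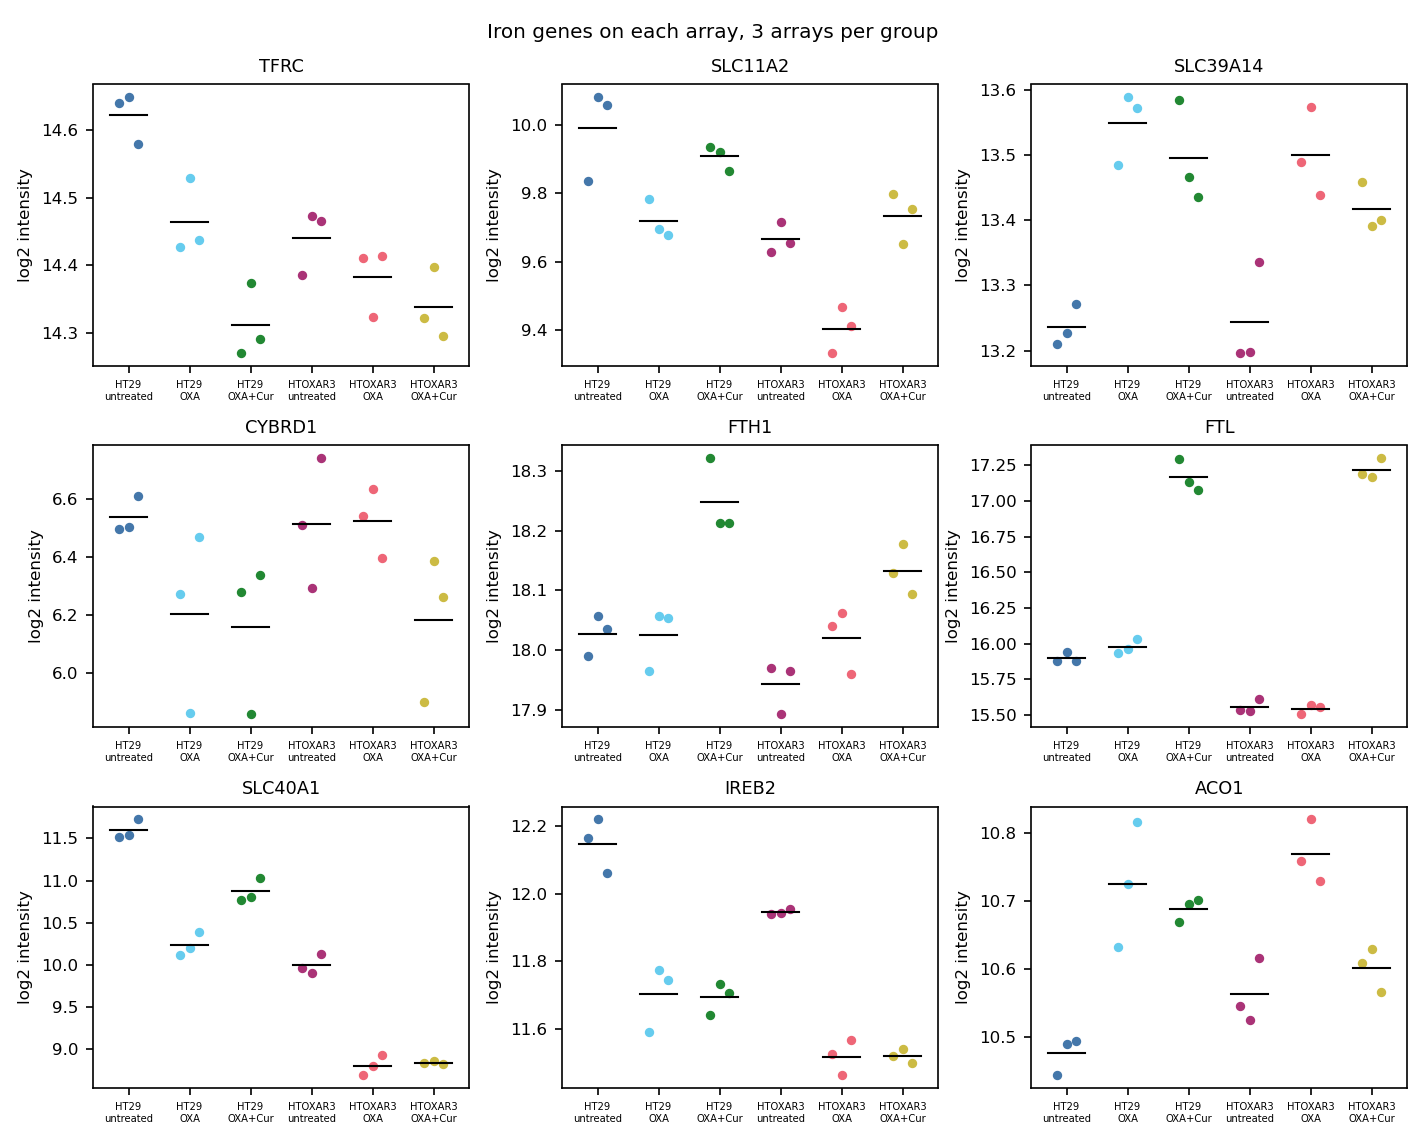
Log2 intensity of the 9 genes on every array, 3 per group, with the group mean as a line, for the probe that stands for each gene. The vertical axes differ between panels. FTL stands high in both groups with Curcumin, SLC40A1 falls from 11.51 to 11.72 in untreated HT29 to 8.70 to 8.93 in HTOXAR3 after OXA, and IREB2 is lower in all 4 treated groups than in the untreated group of the same line.

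The leukocyte markers moved with the genes that fell after OXA. Their summed level, mostly CD14, was 11.20, 11.33 and 11.18 in untreated HT29, 10.49, 10.53 and 10.48 after OXA, and 10.72, 10.79 and 11.20 after OXA plus Curcumin. In HTOXAR3 it was 11.61, 11.56 and 11.53 untreated, 11.11, 11.03 and 11.09 after OXA, and 11.11, 11.08 and 11.04 after OXA plus Curcumin. The treated groups lay below the untreated group in HTOXAR3, and in HT29 the OXA group did. Untreated HTOXAR3 lay above untreated HT29, and in HT29 the arrays with Curcumin lay above those with OXA alone. The part of these markers in the falls of SLC40A1 and IREB2, in the differences between the untreated lines and in the rises of FTL and SLC40A1 with Curcumin in HT29 was not tested.

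The sums of the other markers were as follows. The colon epithelial sum was 18.98 to 19.08 in untreated HT29 and 19.13 to 19.22 in all treated HT29 arrays. In HTOXAR3 it was 19.02 to 19.05 without treatment and with OXA, and 19.14 to 19.18 with OXA plus Curcumin. This sum is set mostly by KRT18, and single epithelial markers varied more, with LGALS4 between 12.17 and 15.17 and VIL1 between 10.39 and 13.26 over the 18 arrays. The endothelial sum ran from 8.08 to 8.80. The fibroblast sum, of markers of which none was above background on all arrays, was 6.14 to 6.46 in untreated HT29 and 6.60 to 7.46 in treated HT29. In HTOXAR3 the fibroblast sums were 6.15 to 6.54 untreated, 6.458 to 6.484 with OXA and 6.079 to 6.455 with OXA plus Curcumin. The untreated sums overlapped those of both treated groups, and the sums with Curcumin lay just below those with OXA alone. Their part in the changes of FTL, SLC40A1 and IREB2 was not tested.

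Among the 9 genes, the log2 intensities of ACO1 and SLC39A14 (r = 0.87), FTH1 and FTL (0.85) and TFRC and IREB2 (0.81) were most alike over the 18 arrays. The lowest correlation was that of IREB2 and SLC39A14 (-0.74), and FTL and SLC40A1 were at -0.02. The arrays share lines, treatments and slides, so these values describe the arrays and carry no test. Over 17398 other gene names well above background on all 18 arrays, FTL was most like GABARAPL1 (0.992) and SDCBP2 (0.990), SLC40A1 was most like CCL15 (0.992) and SLC5A1 (0.982), and IREB2 was most like TMEM120B (0.985) and MRPL57 (0.982). The closest names to SLC39A14 were TRAM2 (0.944) and DPF2 (0.943), to SLC11A2 TMEM144 (0.936) and ELF3 (0.935), and to FTH1 PFKP (0.934) and the unnamed transcript THC2681034 (0.927). For ACO1 they were DPY19L4 (0.931) and TTC25 (0.930), for CYBRD1 KRT9 (0.926) and LOC100129434 (0.854), and for TFRC KCNIP4 (0.920) and TMEM109 (0.894).

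Other iron genes were taken from 7 lists with 75 genes, all on the array. Between the untreated lines 18 of 75 were called (24.0%, against 11.5% of all names), 17 higher and 1 lower in HTOXAR3, and the median log2 difference was 0.08, against -0.03 over all names. OXA changed 25 of 75 in HT29 (33.3%, against 15.9%), 11 up and 14 down, and 20 of 75 in HTOXAR3 (26.7%, against 10.2%), 7 up and 13 down, with medians of 0.02 and 0.03 against -0.01 and 0.01 over all names. Added Curcumin changed 12 of 75 in HT29 (16.0%, against 5.53%), 8 up and 4 down, and 16 of 75 in HTOXAR3 (21.3%, against 8.83%), 7 up and 9 down, with medians of -0.03 and -0.10 against -0.02 for all names in each. OXA plus Curcumin changed 25 in HT29 (33.3%, against 18.6%), 13 up and 12 down, and 26 in HTOXAR3 (34.7%, against 17.5%), 11 up and 15 down, with medians of -0.02 and -0.03 against -0.03 and -0.01. The shares of all names include dim names, the lists were written with earlier results known, and no excess was tested. The same shares of all names apply to the counts of the single lists below.

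Of the 16 genes of heme synthesis, transport and breakdown, 7 were higher and 1 was lower in untreated HTOXAR3, and OXA raised 4 and lowered 4 in HT29, and raised 2 and lowered 5 in HTOXAR3. Added Curcumin raised 5 and lowered 1 in HT29, and raised 4 and lowered 4 in HTOXAR3. OXA plus Curcumin raised 5 and lowered 2 in HT29, and raised 4 and lowered 3 in HTOXAR3.

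HMOX1, heme oxygenase 1, releases iron from heme. It read 12.06, 12.10 and 11.69 in untreated HT29, 10.00, 9.92 and 10.01 after OXA, and 12.68, 12.95 and 12.97 after OXA plus Curcumin. The HTOXAR3 arrays read 12.69, 12.63 and 12.61 untreated, 10.92, 10.72 and 10.71 after OXA, and 13.97, 13.73 and 13.85 after OXA plus Curcumin. In each line the OXA arrays were lowest and those with Curcumin highest, without overlap. HMOX1 fell with OXA, by differences of -1.97 in HT29 (SE 0.11, adjusted p = 1.57e-07) and -1.86 in HTOXAR3 (adjusted p = 1.31e-06). Added Curcumin raised it by 2.89 in HT29 (adjusted p = 4.46e-08) and by 3.06 in HTOXAR3 (adjusted p = 1.38e-08), to 0.92 and 1.21 above untreated cells (adjusted p = 0.000218 and 1.81e-05). Without treatment it was higher in HTOXAR3 by 0.69 (adjusted p = 0.00422). The calls between the untreated lines and for OXA plus Curcumin in HT29 were lost with the compared groups alone in the fit (adjusted p = 0.278 and 0.121).

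BLVRB, which reduces biliverdin, one of the products of heme breakdown, rose with added Curcumin by 1.30 in HT29 (SE 0.05, adjusted p = 5.07e-08) and by 1.44 in HTOXAR3 (SE 0.05, adjusted p = 1.38e-08). Against untreated cells, BLVRB rose by 1.51 and 1.48 with OXA plus Curcumin. With the compared groups alone in the fit, the calls of BLVRB and ALAS1 for added Curcumin in HT29 were lost (adjusted p = 0.0606 and 0.307). ALAS1, the first enzyme of heme synthesis, rose with added Curcumin by 0.62 in HT29 (adjusted p = 0.000154) and by 0.83 in HTOXAR3 (adjusted p = 8.04e-06). UROS, a later enzyme of that pathway, fell with OXA plus Curcumin in both lines, with -1.22 in HT29 (adjusted p = 1.04e-07) and -1.30 in HTOXAR3 (adjusted p = 8.87e-08), or -0.77 and -0.85 for the mean of its probes. OXA alone gave -0.82 and -0.81 for UROS, both called. Among untreated cells, BLVRA, another biliverdin reductase, was higher in HTOXAR3 by 1.43 (SE 0.08, adjusted p = 2.26e-07) and FECH, the enzyme that inserts iron into heme, by 0.79 (SE 0.07, adjusted p = 1.21e-05). The call of FECH was lost with the mean of its probes (0.45, adjusted p = 0.238) and with the compared groups alone in the fit (adjusted p = 0.0675).

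NCOA4, which delivers ferritin to the lysosome, belongs to the list of cytosolic iron handling and ferritin turnover. It read 14.41, 14.46 and 14.45 in HT29 after OXA and 14.76, 14.76 and 14.68 after OXA plus Curcumin, and in HTOXAR3 14.44, 14.31 and 14.30 and then 14.71, 14.72 and 14.81. The groups did not overlap in either line, and NCOA4 rose by 0.30 in HT29 (SE 0.06, adjusted p = 0.0286) and by 0.40 in HTOXAR3 (SE 0.06, adjusted p = 0.002). The call in HT29 was lost with slide as a block (0.27, adjusted p = 0.0793), with replicate number as a block (adjusted p = 0.0595), under both scalings to the 75th percentile (0.28, adjusted p = 0.0667 and 0.0827) and without HT29 OXA plus Curcumin replicate 1 (0.29) or 2 (0.28) or HT29 OXA replicate 1 (0.28), 2 (0.31) or 3 (0.30), with adjusted p between 0.0999 and 0.151. The call in HTOXAR3 was lost with the mean of all NCOA4 probes (0.25, adjusted p = 0.0638). With the compared groups alone in the fit both were lost (adjusted p = 1 and 0.33).

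Of all 6 genes of that list, NCOA4 included, limma called 0 between the untreated lines, and OXA lowered 1 in HT29 and 2 in HTOXAR3. Added Curcumin raised 1 in HT29 and 2 in HTOXAR3, and OXA plus Curcumin raised 1, NCOA4, and lowered 1 in each line. Of 9 genes of iron export and its control, limma called 0 in all 10 comparisons.

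In the list of cytosolic iron-sulfur cluster assembly, NUBP2 and CIAO3 had the largest called differences with OXA in HT29. The same held with OXA plus Curcumin in both lines. NUBP2, part of the scaffold on which clusters form, read 11.31, 11.17 and 11.28 in untreated HT29, 8.75, 8.70 and 8.66 after OXA, and 9.10, 9.02 and 9.34 after OXA plus Curcumin. The HTOXAR3 arrays read 11.50, 11.46 and 11.49 untreated, 10.41, 10.68 and 10.53 after OXA, and 10.30, 10.24 and 10.24 after OXA plus Curcumin. In each line the treated arrays lay below the untreated ones without overlap. NUBP2 fell with OXA, by differences of -2.55 in HT29 (SE 0.08, adjusted p = 9.66e-10) and -0.94 in HTOXAR3 (SE 0.08, adjusted p = 3.62e-05, or 0.0502 with the compared groups alone in the fit). OXA plus Curcumin lowered it too, with -2.10 in HT29 (adjusted p = 6.81e-09) and -1.22 in HTOXAR3 (adjusted p = 1.20e-06).

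CIAO3, named NARFL on the array, works at a later step of the same assembly. It read 10.59, 10.72 and 10.64 in untreated HT29, 8.47, 8.33 and 8.40 after OXA, and 8.88, 8.88 and 9.17 after OXA plus Curcumin. The HTOXAR3 arrays read 10.79, 10.86 and 10.75, then 10.22, 10.31 and 10.34, and then 10.10, 10.12 and 10.05. CIAO3 fell with OXA by differences of -2.24 in HT29 (SE 0.08, adjusted p = 1.53e-09) and -0.51 in HTOXAR3 (SE 0.08, adjusted p = 0.0034, or 0.12 with the compared groups alone in the fit). With OXA plus Curcumin it was lower by -1.67 in HT29 (adjusted p = 2.74e-08) and -0.71 in HTOXAR3 (adjusted p = 8.73e-05). Of the 9 genes of this list, 1 was called between the untreated lines, higher in HTOXAR3. OXA raised 2 and lowered 2 in HT29, and raised 1 and lowered 2 in HTOXAR3. Added Curcumin raised 2 in HT29 and changed 0 in HTOXAR3 in limma, and OXA plus Curcumin raised 2 and lowered 2 in each line.

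Of 10 further genes of iron uptake and reduction, 2 were higher in untreated HTOXAR3, and OXA raised 2 and lowered 4 in HT29, and raised 1 and lowered 1 in HTOXAR3. Added Curcumin lowered 1 in HT29 and changed 0 in HTOXAR3 in limma, and OXA plus Curcumin raised 2 and lowered 3 in each line. STEAP3, a ferric reductase of endosomes, fell in both lines, with -1.11 in HT29 (SE 0.08, adjusted p = 2.38e-06) and -1.10 in HTOXAR3 (SE 0.08, adjusted p = 7.50e-06) for OXA. For OXA plus Curcumin STEAP3 gave -1.31 in HT29 (adjusted p = 3.68e-07) and -1.35 in HTOXAR3 (adjusted p = 3.94e-07). With the mean of its probes the HTOXAR3 values were -0.65 and -0.77. STEAP4, of the same family and list, was called higher in both lines in these comparisons. Of 20 genes of mitochondrial iron and iron-sulfur clusters, 5 were higher in untreated HTOXAR3, among them ISCA2, a cluster assembly factor, by 0.97 (SE 0.05, adjusted p = 4.14e-08). In that list OXA raised 2 and lowered 2 in each line, added Curcumin lowered 2 in HT29 and raised 1 and lowered 5 in HTOXAR3, and OXA plus Curcumin raised 2 and lowered 3 in HT29 and raised 1 and lowered 6 in HTOXAR3. Of 5 other mRNAs with an iron-responsive element, 2 were higher in untreated HTOXAR3, OXA raised 1 and lowered 1 in each line, and added Curcumin changed 0 in either line in limma. OXA plus Curcumin raised 1 and lowered 1 of those in HT29 and raised 1 in HTOXAR3.

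**Figure D5:**
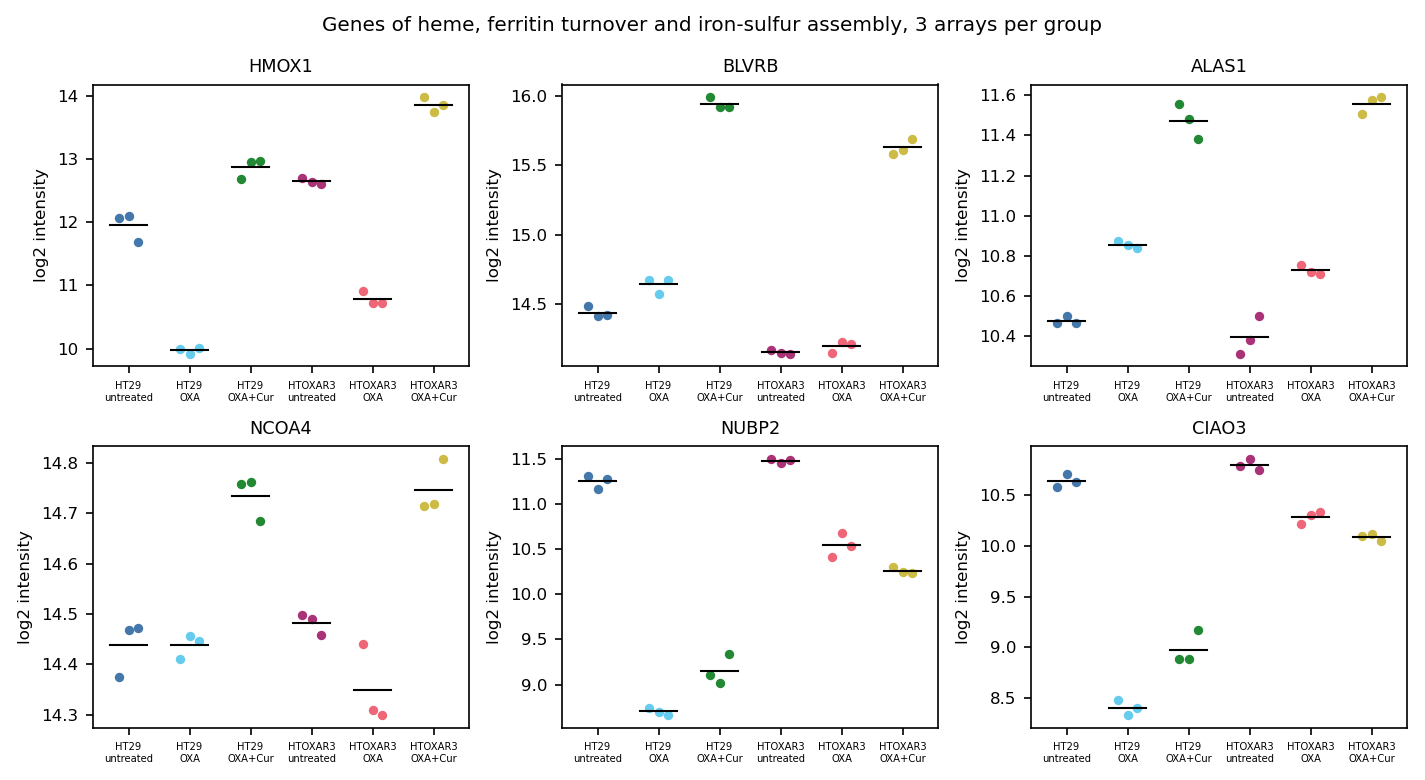
Log2 intensity of HMOX1, BLVRB, ALAS1, NCOA4, NUBP2 and CIAO3 on every array, 3 per group, with the group mean as a line. The vertical axes differ between panels. HMOX1 falls with OXA and exceeds untreated levels with OXA plus Curcumin in both lines, and NUBP2 and CIAO3 read 8.33 to 9.34 in treated HT29 and 10.05 to 10.68 in treated HTOXAR3.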

How the data were processed

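Total RNA of 18 samples had been labelled with Cy3, hybridised to Agilent arrays and read with Feature Extraction 10.7.3.1. The authors deposited the scanner output, whose mean spot intensity and median background intensity carry no normalization between arrays. Their table of log2 values was not used, since its lines are numbered and the numbers matched no probe name.

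Background was corrected with normexp (offset 0) over all spots, control spots were dropped, quantile normalization was applied, outlier-flagged spots were set to missing (2 of 630 readings of the 9 genes) and replicate spots were averaged. No spot of the 9 genes was saturated. The probe with the highest mean stood for a gene name. A model with 6 group terms was fitted with limma (3.58.1, under R 4.3.3; files were read with data.table, version 1.17.8), and p was adjusted by Benjamini-Yekutieli over all names, or over all 50599 probes for single probes. Python 3.11.15 (pandas 2.3.3, numpy 2.4.6, matplotlib 3.10.9) served for sequences and figures. The fit was tested on simulated data.

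Whether a probe was well above background was taken from the scanner software's flag. Named were the 9 genes, the 2 names most like each, HMOX1, NCOA4, and, in each comparison, at most the 3 called genes of the lists with the largest difference. Values of such genes in the other line, and the name STEAP4, were added after values had been seen. The 9 genes and the lists were chosen with earlier results of these data known.

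Deviations from the group means of arrays with the same replicate number correlated at 0.117 to 0.242 for OXA in HT29 and at 0.109 to 0.195 for Curcumin added in HTOXAR3, where each such pair shared a slide. Replicate number as a block changed the call of none of the 9 genes in these comparisons.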

Additional observations from a re-analysis of the deposited data

Results flagged for a closer look

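The response to treatment differed between the lines for 2 genes of cytosolic iron-sulfur cluster assembly, by the interaction test in limma. Of the 75 list genes, 2 (2.67%) were called for OXA and 2 (2.67%) for OXA plus Curcumin, against 1.01% and 0.856% of all names. For added Curcumin limma called 0 of 75, against 0.135%. No excess was tested. NUBP2 fell less with OXA in HTOXAR3 than in HT29, by a log2 difference of 1.61 (SE 0.12, adjusted p = 3.38e-05), and less with OXA plus Curcumin by 0.88 (SE 0.12, adjusted p = 0.0126). Without HTOXAR3 OXA plus Curcumin replicate 1 the latter was 0.86 (adjusted p = 0.051) and no longer called. CIAO3 (NARFL on the array) fell less with OXA in HTOXAR3 by 1.73 (SE 0.11, adjusted p = 8.24e-06), and less with OXA plus Curcumin by 0.96 (SE 0.11, adjusted p = 0.00418). With the compared groups alone in the fit, the calls for OXA plus Curcumin were lost (adjusted p = 0.0872 for NUBP2 and 0.0609 for CIAO3). The lines received different doses of OXA, so line and dose cannot be told apart here.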

How the results depend on the processing

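How many of the 9 genes were called depended on the choices of the analysis as follows. For Curcumin added in HTOXAR3 the count of 1 became 2 with a normexp offset of 50, with the processed signal minus its 75th percentile, with the mean of all probes, with dim names left out and with Benjamini-Hochberg adjustment. For the difference between the lines with added Curcumin, the count of 0 became 1 with the offset of 50 and with Benjamini-Hochberg, and for OXA plus Curcumin 1 with Benjamini-Hochberg. For OXA in HT29 the processed signal minus its 75th percentile, which changes signal and scaling together, gave 5 in place of 3. A 2-fold minimum, stricter by construction, left 1 for the untreated lines, 1 for OXA in HT29, 1 for OXA in HTOXAR3, 1 for Curcumin added in HT29 and 1 for OXA plus Curcumin in HT29. With only the groups compared in the fit, the counts were 1 for the untreated lines, 1 for OXA in HT29, 1 for OXA in HTOXAR3, 0 in limma for Curcumin added in HT29 and 1 for OXA plus Curcumin in HT29. Of all names, that fit called 1258 in place of 4177 for the untreated lines and 1338 in place of 5774 for OXA in HT29. It called 592 in place of 3709 for OXA in HTOXAR3. For HT29 it called 16 in place of 2002 with added Curcumin and 2056 in place of 6724 with OXA plus Curcumin. Leaving out an array gave 1 to 2 for the untreated lines and 2 to 4 for OXA in HT29. Smaller moves were as follows. For the untreated lines the count was 2 under both scalings to the 75th percentile and with slide as a block, and 4 with the mean of probes. For OXA in HT29 it was 4 with normexp scaled to the 75th percentile, with dim names left out and with Benjamini-Hochberg. For OXA in HTOXAR3 it was 3 with the mean of probes and with Benjamini-Hochberg. For OXA plus Curcumin the mean of probes gave 5 in HT29 and 4 in HTOXAR3, and the 2-fold minimum gave 2 in HTOXAR3. Apart from the 2-fold minimum, the cause was not tested.

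Among the 83 single differences put through the alternatives, directions turned for CYBRD1, FTH1 and SLC39A14. Probes also differed in sign for other differences, such as FTL with OXA in HTOXAR3 (-0.02, and 0.09 and 0.02 on its other probes). SLC11A2 with OXA plus Curcumin in HTOXAR3 (0.07, and -0.07 on A_24_P381494) was another. So were the differences between the lines with OXA of CYBRD1 (0.34, and -0.51 on A_24_P345451) and FTH1 (0.08, and -0.13 on A_21_P0013796). CYBRD1 between the untreated lines (-0.02) was 0.0220 with the processed signal and 0.0472 with normexp, both scaled to the 75th percentile. That difference was 0.78 with the mean of probes, 0.0320 with slide as a block and 1.57 on A_24_P345451. When an array was left out, it ran from -0.13 to 0.0878. For OXA in HT29 CYBRD1 was 0.24 with the mean of probes and 0.81 on that probe, and for OXA plus Curcumin in HT29 0.21 and 0.81. FTH1 with OXA in HT29 was 0.0771 with the mean of probes, 0.27 on A_21_P0013796, 0.26 on A_24_P58337 and -0.0214 to 0.0277 when an array was left out. FTH1 with OXA plus Curcumin was -0.10 in HT29 and -0.12 in HTOXAR3 on A_32_P342064. The difference of SLC39A14 between the lines with OXA was 0.0531 with the processed signal and 0.0394 with normexp, both scaled to the 75th percentile. The cause was not tested.

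With replicate number as a block, the count of called genes between the untreated lines went from 3 to 2, through SLC11A2, and no other count changed. Of 83 single differences, 81 kept their call and direction with that block and 80 with slide as a block.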
